A study of Mus musculus with 4 samples.

Results

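The cyclin genes examined here are Ccnd1, Ccnd2 and Ccnd3 (D type), Ccne1 and Ccne2 (E type), Ccna2, Ccnb1, Ccnb2 and Ccnf. These 9 genes were chosen by name and matched by symbol to the mouse gene identifiers of both count tables, where all 9 were found among 46078 gene rows. By the labels and the methods of the study, the cells were wild-type E14 mouse embryonic stem (ES) cells grown in 2i, which is N2B27 medium with the MEK inhibitor PD0325901, the GSK3 inhibitor CHIRON and leukaemia inhibitory factor. Forward and side scatter set a sorting gate for small cells, which the study used to take cells leaving mitosis or in G1. Small cells or cells left ungated were then held for 6 h on laminin-coated plates in 2i or in N2B27 alone. The latter lacks both inhibitors and leukaemia inhibitory factor. Single cells were sequenced by Smart-seq2, which reads whole transcripts and adds no molecular identifiers. On GRCm38 the genes lie as follows: Ccnd1 at chr7:144929931-144939925, Ccnd2 at chr6:127125162-127152193, Ccnd3 at chr17:47505051-47599691, Ccne1 at chr7:38097984-38107534, Ccne2 at chr4:11191351-11204779, Ccna2 at chr3:36564865-36572150, Ccnb1 at chr13:100778650-100786570, Ccnb2 at chr9:70407692-70421547 and Ccnf at chr17:24222198-24251484, with Ccnd3 and Ccne2 on the plus strand and the others on the minus strand. The 4 groups, small and ungated cells in 2i and the same gates in N2B27, are each 1 sample of 24 cells, and lists of 4 values give them in that order.

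Cyclins are the regulatory partners of cyclin-dependent kinases (CDKs), and most are made and destroyed once in each cell cycle. D-type cyclins bind CDK4 and CDK6, are known in many cell types to be raised by growth factor signalling through MEK and ERK, and start the phosphorylation of the retinoblastoma protein. E-type cyclins bind CDK2 at the entry into S phase, cyclin A2 binds CDK2 and then CDK1 through S and G2, B-type cyclins bind CDK1 to drive mitosis, and cyclin F, which binds no CDK, is the substrate receptor of an SCF ubiquitin ligase. ES cells are known for a short G1 phase and for cyclin E activity that varies little over the cycle. The design put a pair of questions to these genes. The first was whether the D-type genes differed between the media, the second whether the E, A, B and F genes differed with the size gate. The MEK inhibitor, CHIRON and leukaemia inhibitory factor were removed together, so the part of each cannot be told apart.

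Because transcription of many G2/M genes depends on short promoter motifs, the promoters of the later cyclins are shown with the letters of those motifs. RefSeq promoter entries (build GRCm38.p6, 250 bases before to 50 after a transcript start) were found for Ccnd3, with 2 starts, and for Ccne1, Ccnb1, Ccnb2 and Ccnf. Each stretch printed here ends before both the RefSeq start and the outermost start of the gene in GENCODE, and all 4 are read from the minus strand, 5′ to 3′. They lie at chr13:100786571-100786736 for Ccnb1, chr9:70421555-70421804 for Ccnb2, chr17:24251485-24251659 for Ccnf and chr7:38107535-38107740 for Ccne1. Capitals mark the letters CCAAT of the CCAAT box, the letters TTTGAA or else the letters TTCGAA of the CHR element, and the letters of an E2F core, each searched on both strands. The E2F core was searched as TTCCCGC and, with other middle letters, as TTGGCGC in the second form, as TTCGCGC in the third and as TTGCCGC in the last.
Ccnb1: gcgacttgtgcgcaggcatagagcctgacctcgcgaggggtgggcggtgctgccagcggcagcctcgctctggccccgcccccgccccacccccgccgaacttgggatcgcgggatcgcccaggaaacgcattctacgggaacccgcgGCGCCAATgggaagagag
Ccnb2: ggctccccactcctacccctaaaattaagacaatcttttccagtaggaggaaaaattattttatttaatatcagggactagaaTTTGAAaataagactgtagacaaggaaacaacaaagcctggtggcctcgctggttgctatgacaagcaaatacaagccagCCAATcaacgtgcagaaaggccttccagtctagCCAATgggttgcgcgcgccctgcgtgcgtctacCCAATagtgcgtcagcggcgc
Ccnf: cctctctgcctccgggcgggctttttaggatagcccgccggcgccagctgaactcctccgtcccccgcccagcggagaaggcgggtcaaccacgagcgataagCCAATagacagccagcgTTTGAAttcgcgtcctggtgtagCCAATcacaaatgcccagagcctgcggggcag
Ccne1: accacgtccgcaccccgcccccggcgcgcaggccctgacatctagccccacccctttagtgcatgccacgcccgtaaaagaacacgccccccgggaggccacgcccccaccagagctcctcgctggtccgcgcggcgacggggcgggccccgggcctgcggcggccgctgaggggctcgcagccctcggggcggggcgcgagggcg

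Ccnb2 held 3 CCAAT boxes, whose first bases lie at -87, -54 and -21 from the RefSeq start, 33 bases apart each. Ccnb1 held 2, at -99 and -67, 32 bases apart, of which the latter lies inside the GENCODE gene and is not printed, and an E2F core on the other strand at -102 overlaps the former. Ccnf held 2, at -147 and -107, and CHR letters at -130 and -14, and Ccnb2 held CHR letters at -167 and 4. Ccne1 held none of the 3 motifs in its 300 bases, and Ccnd3 held 1 CCAAT box, in its second window. Of 32851 promoter windows of the same length, 37.4% held a CCAAT box, 11.7% held 2 or more, 19.2% held CHR letters, 7.52% held both CCAAT and CHR, and 9.57% held an E2F core. These matches describe letters in a window and not binding.

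Each group is 1 sample, so no test between groups was possible and no p-value is given. The 95% intervals are exact Poisson intervals of summed counts or Clopper-Pearson intervals of shares of cells, and cover counting error only, since cells are not replicates. All 2i cells carry a sequencing batch name of their own, as do all N2B27 cells, so medium and batch cannot be told apart. Small and ungated cells lie on different index rows of a batch, so gate and index row cannot be told apart either. Index rows within a group also differed for some genes. In 2i small cells Ccnd1 had means of 363 and 1.80 normalized counts by index row. In N2B27 small cells Ccna2 had 1119.5 and 486, against 1056 in all N2B27 ungated cells, while Ccnb1 had 608 and 639. The part of index row was not tested. The filter on quality had limits of its own for each medium, looser in 2i. After it, 12 of 24 2i small cells and 22 of 24 2i ungated cells were kept. So were 20 of 24 N2B27 small cells and 21 of 24 N2B27 ungated cells, 75 of 96 in all. Totals of kept cells ran from 1364155 to 4844170 counts on genes, with group medians between 2.58e+06 and 3.33e+06. Each of 7 ES cell markers, Pou5f1, Sox2, Nanog, Zfp42, Esrrb, Dppa5a and Tdgf1, had a mean of over 20 normalized counts in every group, while the summed fibroblast markers and the summed 2-cell-like markers reached at most 1.25 normalized counts in a kept cell. Not every cell held each ES cell marker: Sox2 reached 10 normalized counts in 43 of 75 kept cells, Esrrb and Tdgf1 in 55 each, and the others in 68 to 75. Summed primitive endoderm and trophoblast markers had a median of 0 in every group but reached 533 and 1035 in single cells, and 1 of 4 trophoblast markers had a mean of over 20 in each small group.

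A pair of 2i small cells stands apart, and values are given without them where they decide a result. One had the most genes detected (15712) and the lowest spike-in share (0.0673%). The other had the highest spike-in share (40.9%) and a size factor of 0.133, so that each of its reads counts for several normalized counts. Its 6915 reads of Ccne1 made 51.5% of all Ccne1 reads of the 2i small cells and became 52099 normalized counts, while its reads of Ccnd3 and Ccnb1 numbered 3 each. Other kept 2i small cells had spike-in shares of 17.1%, 16.7% and 11.1%, and were not left out. The highest shares were 2.42% in 2i ungated and 6.03% in N2B27 small cells. In these 2i small cells, in that order, Ccnd3 stood at 5.64, 7.28 and 1298 normalized counts and Ccna2 at 3.76, 1.82 and 387. Spike-in shares had medians of 3.47% in 2i small, 1.28% in 2i ungated, 2.45% in N2B27 small and 1.14% in N2B27 ungated cells, so they were higher in the small cells of both media, and genes detected had medians of 7603, 9516, 7463 and 8200 in the same order. Their part in the differences by gate was not tested.

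Each of the 9 genes is described first by its values in single cells, as normalized counts (read counts divided by the DESeq2 size factor of the cell), and then by the log2 ratio of group means, with a pseudocount of 1. A log2 ratio of at least 1 in size is called lower or higher, and the share of all genes past that size is given beside the first count of members in each comparison. A cell is said to hold a gene at 10 or more normalized counts.

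**Figure D1:**
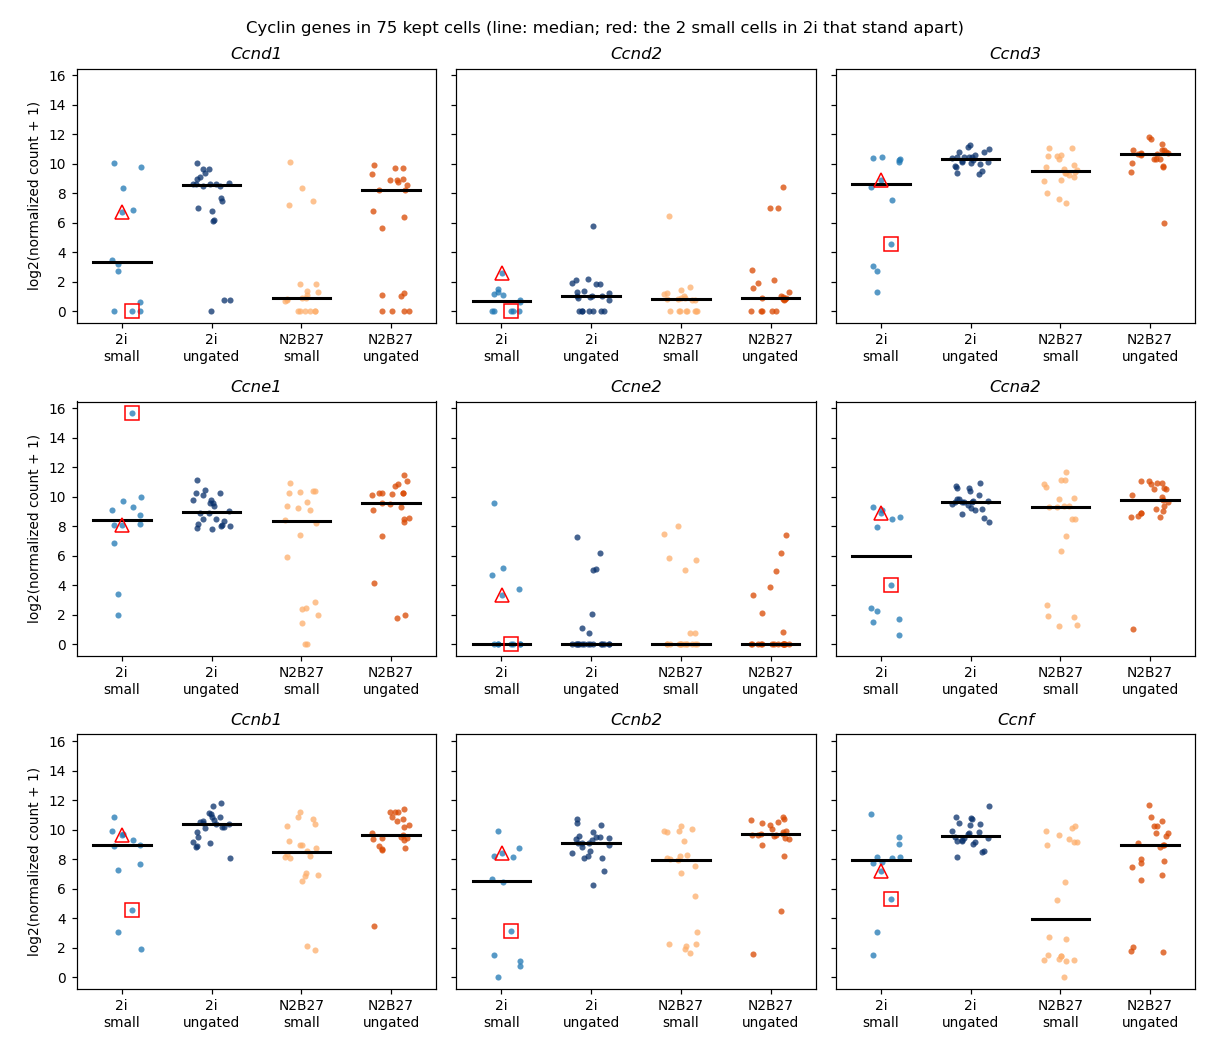
Each point is a kept cell, the vertical axis is log2(normalized count + 1) of the gene and the horizontal axis the 4 groups, with the median of each group as a line. Red outlines mark the small 2i cells that stand apart, by most genes detected (triangle) and by highest spike-in share (square), which has 52099 normalized counts of Ccne1. The values of Ccnd1, Ccna2, Ccnb2 and Ccnf fall into cells near 0 and cells well above 100, and the low cells are mostly small cells.

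Ccnd3 was the D-type gene of nearly every cell. It ran from 1.48 through a median of 406 to 1390.0 normalized counts in 2i small cells, and from 634 through 1269 to 2524 in 2i ungated cells. In N2B27 it ran from 159 through 719 to 2178 in small cells and from 62.7 through 1636 to 3621 in ungated cells. The groups overlap in both media, but 7 of 12 2i small cells lay below the lowest 2i ungated cell. Cells with at least 10 normalized counts numbered 9 of 12, 22 of 22, 20 of 20 and 21 of 21.

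Ccnd1, the D-type cyclin best known as a target of growth factor signalling, was present in some cells and nearly missing in others. In 2i small cells it ran from 0 through a median of 9.13 to 1079 normalized counts, and in 2i ungated cells from 0 through 375 to 1084. In N2B27 small cells the median was 0.859 and the highest cell had 1102, and in N2B27 ungated cells the median was 297 and the highest 956. It held at least 10 in 5 of 12 2i small cells (41.7%, interval 15.2 to 72.3), 19 of 22 2i ungated cells (86.4%, 65.1 to 97.1), 4 of 20 N2B27 small cells (20%, 5.73 to 43.7) and 14 of 21 N2B27 ungated cells (66.7%, 43.0 to 85.4). With no filter on cells the numbers were 11, 20, 6 and 17 of 24 cells each, in the same order of groups. This is a weak check, because nearly empty cells then enter. In a 2i small cell with a total of 9568 counts and a size factor of 0.0114, a single read passes 10.

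No cell held Ccnd1 without Ccnd3. Cells with Ccnd3 but not Ccnd1 numbered 4 of 12, 3 of 22, 16 of 20 and 7 of 21, in the order of the groups above. Most N2B27 small cells therefore carried Ccnd3 as their only D-type transcript at this level.

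Ccnd2 stayed near the floor. It reached 10 normalized counts in 0 of 12, 1 of 22, 1 of 20 and 3 of 21 cells, with group medians from 0.618 to 1.02. Its highest cells had 4.99 in 2i small, 54.5 in 2i ungated, 88.3 in N2B27 small and 340.4 in N2B27 ungated cells, and a single cell made 59.1%, 66.7%, 85.8% and 55.6% of its reads in these groups.

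By medium, the D-type genes did not move together. Ccnd1 was lower in N2B27 than in 2i small cells by a log2 ratio of -1.26 (means of 88.3 and 212), and differed by -0.24 in ungated cells (303 and 358). Ccnd3 was at 0.56 in small cells (909 and 617) and at 0.29 in ungated cells (1634 and 1337). Ccnd2 was at 1.59 in small cells (5.02 and 1.00) and at 2.72 in ungated cells (29.4 and 3.61), and both rest on the few cells named above, the former being -1.21 with size factors from the spike-ins. In small cells 1 of 3 D-type genes was lower and 1 higher, where 17.9% of 8504 genes were lower and 23.8% higher. In ungated cells 0 were lower and 1 was higher, where 9.55% of 8682 genes were lower and 7.95% higher. The median over all genes was 0.13 in small and -0.02 in ungated cells. Ccnd2, which makes the higher call in both, does not reach the mean of 20 normalized counts asked of those genes, and each group enters 2 of the 4 comparisons.

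ERK response genes, taken as 7 known targets of the pathway that PD0325901 blocks, were mostly higher in N2B27. Of those with a mean of at least 20, 5 of 7 were higher in the small gate and, of the ungated, 4 of 6, with medians of 2.33 and 1.86 and none lower. Egr1, an immediate-early transcription factor, had means of 0.0640 in 2i small and 0 in 2i ungated cells against 459 in N2B27 small and 354 in N2B27 ungated cells. Spry4, a feedback inhibitor of the pathway, was at 5.11 in small cells, and Etv4, an ETS factor, at 4.21 in ungated cells, whereas Etv5, another ETS factor, was at -0.58 and 0.12 and Spry2 at -0.33 and 0.19. Ccnd1 lay below 0 in both gates while most of these genes lay above 1. In ungated cells the direction of Ccnd1 turned with poscounts size factors, to 0.10, where the median over all genes was 0.41. By gate, 0 of 3 tested ERK response genes were lower and 1 higher in 2i small cells, and 1 of 7 was lower and 1 higher in N2B27. Wnt response genes are given because CHIRON, which activates that pathway, is also absent from N2B27. Of those tested 2 of 2 were lower in small cells (Lef1 -2.51, Cdx1 -1.57), and 2 of 4 lower (Sp5 -2.74, Cdx1 -2.30) and 1 higher (Axin2 1.34) in ungated cells, and by gate 0 of 3 passed that size in 2i and 2 of 3 were lower in N2B27 (Axin2 -3.37, Lef1 -2.90).

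**Figure D2:**
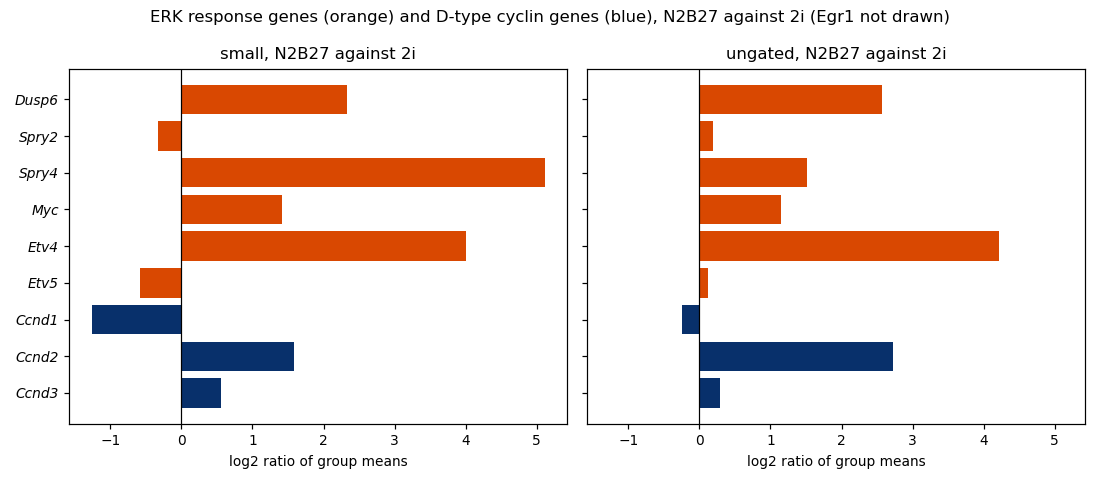
Bars give the log2 ratio of group means, N2B27 against 2i, for 6 ERK response genes (orange) and the 3 D-type cyclin genes (blue), in small cells (left) and ungated cells (right). Ccnd1 lies at -1.26 and -0.24, Spry2 at -0.33 and 0.19 and Etv5 at -0.58 and 0.12. Egr1, at or near 0 in 2i, is not drawn.

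By gate, the 3 D-type genes were all below 0 in both media. Ccnd1 was at -0.75 in 2i and -1.77 in N2B27, Ccnd3 at -1.11 and -0.85, and Ccnd2 at -1.20 and -2.34. The direction of Ccnd2 turned in 2i with spike-in scaling (1.12) and in N2B27 with no filter on cells (2.09) or fixed limits (2.41), and that of Ccnd1 in 2i with poscounts size factors (0.18). The number called lower was 2 of 3 in 2i and 2 of 3 in N2B27, Ccnd2 being 1 of them each time. In 2i 27.7% of 8627 genes were lower in small cells and 16.4% higher, and in N2B27 16.5% of 8706 were lower and 12.7% higher. In 2i the call of Ccnd3 depends on the spike-in-rich cell, without which its ratio is -0.99. Whether the difference of Ccnd1 by gate itself differed between the media was not tested.

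Reads of Ccnd1 share ground with LTO1, which lies on the opposite strand and covers 23.4% of its exon bases. Smart-seq2 keeps no strand, so reads in the overlap belong to neither gene in the authors' count. The correlation of the 2 genes over the 75 cells was 0.03. Ccnd3 and Bysl share 4.11% of the exon bases of Ccnd3 in the same way.

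Ccne1, the E-type gene in use in most of these cells, was present in 10 of 12 2i small, 22 of 22 2i ungated, 13 of 20 N2B27 small and 19 of 21 N2B27 ungated cells at 10 or more. In 2i it ran from 2.97 through a median of 352 to 52099 normalized counts in small cells, where the highest cell but the spike-in-rich one had 989, and from 219 through 503 to 2219 in ungated cells. In N2B27 it ran from 0 through 323 to 1976 in small cells and from 2.47 through 770.0 to 2778 in ungated cells. The ratio of means by gate in 2i was 2.76 with the spike-in-rich cell and -0.80 without it, against -0.79 in N2B27. By medium it was -3.14 in small cells, 0.43 without that cell, and 0.42 in ungated cells. A single cell thus turns the direction of Ccne1 in both comparisons it enters.

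Ccne2, the second E-type gene, was found in few cells of any group. It held at least 10 in 4 of 12, 4 of 22, 5 of 20 and 4 of 21 cells, the median was 0 in all 4 groups, and the highest cells had 749.9, 152, 252 and 169.8 normalized counts. Its ratio by gate was 2.29 in 2i and 0.97 in N2B27, and the former was 0.11 with the highest cell of each group left out, a single 2i small cell having made 79.1% of its reads there. By medium it was -1.24 in small cells, and 1.10 with the highest cell of each group left out, and 0.08 in ungated cells. Ints8 lies on the opposite strand over 17.4% of its exon bases and had 199.7% to 398% as many reads as Ccne2 in the 4 groups, with a correlation of -0.05 over cells. At most 4 cells of a group held both E-type genes, and 0, 0, 1 and 1 cells held Ccne2 alone.

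Ccna2, the cyclin of S and G2, ran from 0.570 through a median of 128 to 638 normalized counts in 2i small cells and from 314 through 805 to 1953 in 2i ungated cells. All 12 small cells lay below the ungated median and 7 of them below the lowest ungated cell. In N2B27 it ran from 1.30 through 633 to 3271 in small cells and from 1.01 through 877 to 2176 in ungated cells, and 3 of 20 small cells lay above the highest ungated cell. The ratio by gate was -2.03 in 2i and -0.34 in N2B27. By medium it was 1.90 in small cells and 0.21 in ungated cells, with 10 of 20 N2B27 small cells above the highest 2i small cell. Exosc9, on the opposite strand, covers 12.5% of its exon bases, with a correlation of 0.43 over cells.

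Ccnb1, the main mitotic cyclin, ran from 2.66 through a median of 487 to 1873 normalized counts in 2i small cells and from 266 through 1330.5 to 3582 in 2i ungated cells. In N2B27 it ran from 2.50 through 353 to 2295 in small cells and from 10.1 through 796 to 2735 in ungated cells. The ratio by gate was -1.38 in 2i and -0.88 in N2B27, with 11 of 12 and 15 of 20 small cells below the ungated median. By medium it was 0.21 in small and -0.29 in ungated cells.

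These Ccnb1 counts are uncertain, because transcripts of other genes share long stretches with it. Ccnb1-ps, a processed pseudogene on chromosome 7, shares 989 31-base words with Ccnb1, which are 78.7% of its own words, and held 68.4% to 79.6% as many reads as Ccnb1 in the 4 groups. Gm12856, another processed pseudogene, held 14.7% to 17.5% as many, and the correlations of both with Ccnb1 over the 75 cells were 0.97 and 0.94. Reads of such copies cannot be told apart from misplaced reads of Ccnb1. With 3 copies added, the ratio by gate was -1.36 in 2i and -0.91 in N2B27, and the direction was kept. The other pseudogenes named for members carried little, at most 0.952% for Ccnd3-ps and 0 reads for Ccnb2-ps.

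Ccnb2, the second B-type cyclin, ran from 0 through a median of 92.4 to 942 normalized counts in 2i small cells and from 74.9 through 541 to 1671 in 2i ungated cells. In N2B27 it ran from 2.12 through 250.3 to 1223 in small cells and from 2.02 through 819 to 1859 in ungated cells. The ratio by gate was -1.58 in 2i and -1.29 in N2B27, and again 11 of 12 and 15 of 20 small cells lay below the ungated median. By medium it was 0.83 in small and 0.55 in ungated cells.

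Ccnf, the ligase receptor, ran from 1.82 through a median of 244 to 2108 normalized counts in 2i small cells and from 276 through 765 to 3141 in 2i ungated cells. In N2B27 it ran from 0 through 21.1 to 1212 in small cells and from 2.31 through 496 to 3201 in ungated cells. It held at least 10 in 10 of 12, 22 of 22, 10 of 20 and 18 of 21 cells. The ratio by gate was -1.32 in 2i and -1.09 in N2B27, and by medium -0.30 in small and -0.53 in ungated cells.

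**Figure D3:**
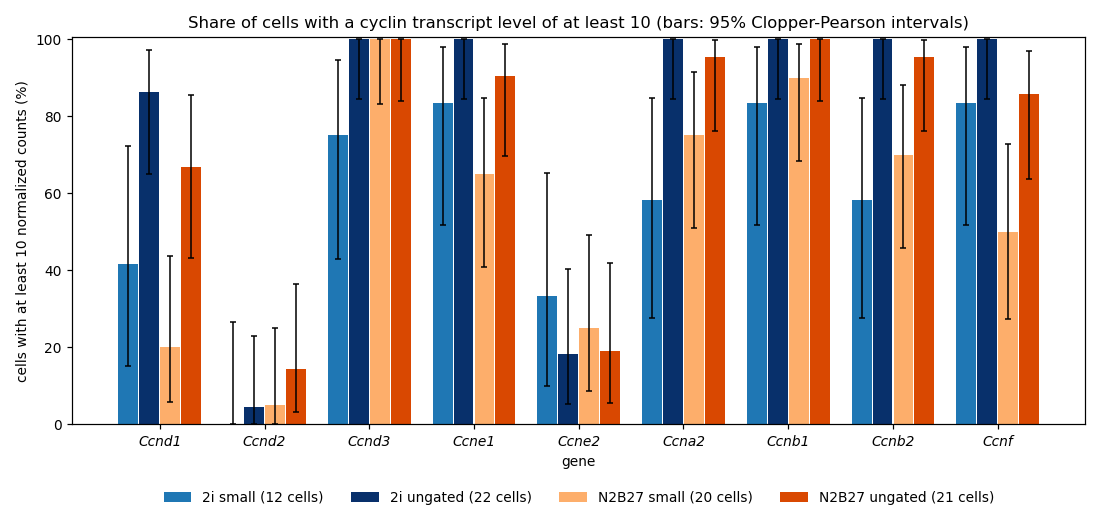
Bars give the percentage of kept cells with at least 10 normalized counts of each gene in the 4 groups, and the thin lines the 95% Clopper-Pearson intervals, which cover counting error only. Every one of the 22 2i ungated cells held Ccnd3, Ccne1, Ccna2, Ccnb1, Ccnb2 and Ccnf, whereas N2B27 small cells held Ccnf in 50% and Ccnd1 in 20%.

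By gate, 4 of 6 E, A, B and F genes were lower in 2i small cells (Ccna2, Ccnb1, Ccnb2 and Ccnf) and 2 higher (Ccne1 and Ccne2), against the 27.7% and 16.4% of all genes given above. Without the spike-in-rich cell the counts were 4 and 1, against 25.1% and 11.9% of all genes. In N2B27 2 of 6 were lower (Ccnb2 and Ccnf) and 0 higher, against 16.5% and 12.7% of all genes. Over all genes the median ratio was -0.36 in 2i and -0.11 in N2B27. By medium, 2 of 6 were lower in small cells (Ccne1 and Ccne2, and 1 without the spike-in-rich cell) and 1 higher (Ccna2), against 17.9% and 23.8% of all genes. In ungated cells 0 were lower and 0 higher, where 9.55% and 7.95% of all genes were.

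Cells that held Ccna2, Ccnb1, Ccnb2 and Ccnf at once were less frequent in the small gate of both media. They were 5 of 12 2i small cells (41.7%, interval 15.2 to 72.3) against 22 of 22 2i ungated cells (100%, 84.6 to 100), and 5 of 20 N2B27 small cells (25%, 8.66 to 49.1) against 18 of 21 N2B27 ungated cells (85.7%, 63.7 to 97.0). Without both cells that stand apart the first share was 4 of 10. With no filter on cells the shares were 9, 23, 6 and 20 of 24, where a single read of a gene passes 10 in nearly empty cells. With size factors from the spike-ins they were 5 of 12, 22 of 22, 6 of 20 and 18 of 21. Many genes other than cyclins were also held by fewer small cells. The shares that follow are of single genes, and no background was taken for 4 genes held at once. They cover genes chosen for being held by the ungated cells, a choice that by itself favours lower shares in small cells. Over the 2286 genes that reached 10 in every 2i ungated cell, the median share of 2i small cells was 83.3% (quartiles 75 and 100), where Ccne1, Ccnb1 and Ccnf lay at 83.3%, Ccnd3 at 75%, and Ccna2 and Ccnb2 at 58.3%. Over the 3976 genes that reached 10 in at least 85% of 2i ungated cells, which include Ccnd1, it was 75% (quartiles 58.3 and 91.7), so that Ccna2 and Ccnb2 lay at the lower quartile and Ccnd1, at 41.7%, below it. Over the 2655 genes that reached 10 in at least 85% of N2B27 ungated cells, the median share of N2B27 small cells was 85% (quartiles 70 and 100), where Ccnd3 lay at 100%, Ccnb1 at 90.0%, Ccna2 at 75%, Ccnb2 at 70.0%, Ccne1 at 65.0% and Ccnf at 50%.

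**Figure D4:**
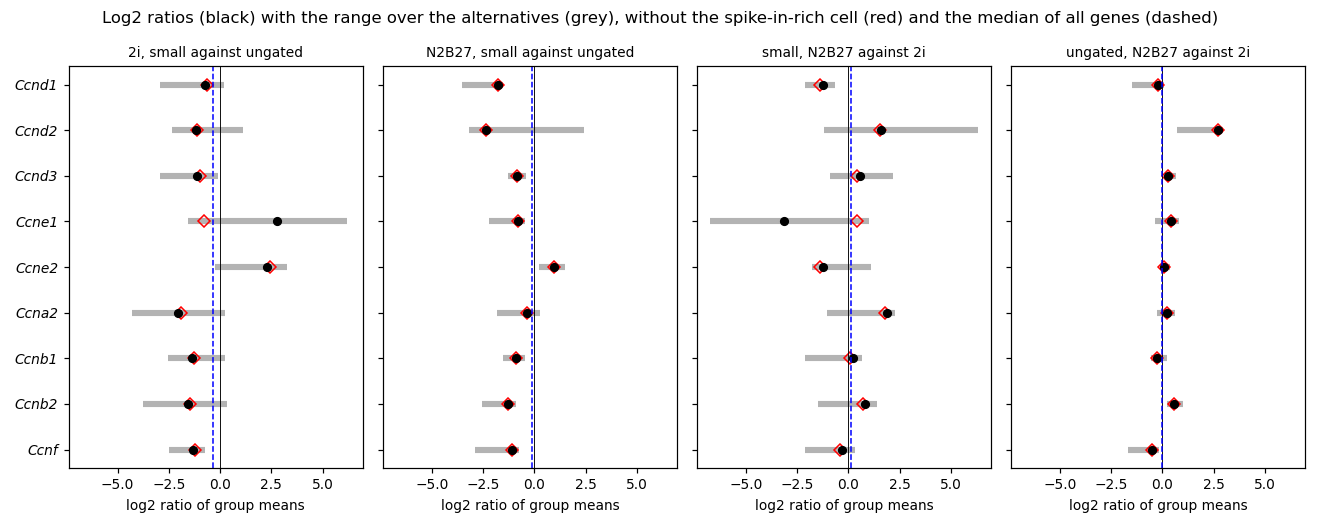
Black points give the log2 ratio of group means of each cyclin gene in the 4 comparisons, grey lines the range over 16 alternative ways of processing, red diamonds the value without the spike-in-rich cell and the dashed line the median of all genes. Ccne1 lies at 2.76 and -3.14 with that cell and at -0.80 and 0.43 without it. In N2B27 the grey lines of Ccnd1, Ccnd3, Ccne1, Ccnb1, Ccnb2 and Ccnf stay below 0.

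Scaling by the spike-ins moved the median of all genes, by gate, to 0.75 in 2i and -0.81 in N2B27. Under them Ccna2, Ccnb1 and Ccnb2 in 2i turned to 0.21, 0.25 and 0.31. Without both cells that stand apart, the same scaling gave a median of all genes of -1.24 and ratios of -2.49, -1.98 and -2.44. In N2B27 the spike-in scaling gave -1.20 for Ccna2, -1.54 for Ccnb1, -1.82 for Ccnb2 and -1.29 for Ccnf, all below the median of all genes.

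The partners and regulators of cyclins were read from lists of known genes. Beside their counts stand the shares of all genes. By gate these were 27.7% lower and 16.4% higher in 2i, and 16.5% and 12.7% in N2B27. By medium they were 17.9% and 23.8% in small cells, and 9.55% and 7.95% in ungated cells. Without the spike-in-rich cell they were 25.1% and 11.9% by gate in 2i, and 13.2% and 22.3% by medium in small cells. Of 9 CDKs and activating partners, 1 was lower in 2i small cells (Cdk1 -1.16) and 2 higher, of which Cks1b, a CDK-binding subunit, was at 1.29 but at 0.13 without the spike-in-rich cell, and Mnat1, of the CDK-activating kinase, at 1.15. None (0 of 9) passed that size by gate in N2B27, where Cdk1 was at -0.53. Cdk4, the D-type partner, was at -0.29 and -0.07, Cdk6 at 0.76 and 0.53 and Cdk2 at -0.11 and -0.46. By medium 2 of 9 were lower in small cells, Cks1b (-1.31, and -0.16 without the spike-in-rich cell) and Cdk2 (-1.21), and 0 in ungated cells, where Cdk2 was at -0.87. Cdk1 was at 0.76 and 0.12 by medium, Cdk4 at -0.12 and -0.34 and Cdk6 at -0.70 and -0.47.

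Among 4 CDK inhibitors with a mean of at least 20, 0 were lower and 1 higher in 2i small cells, and 0 passed that size by gate in N2B27. The higher gene, Cdkn1a, which encodes p21, was at 1.45, but at -0.74 without the spike-in-rich cell. By medium 2 of 4 were lower in ungated cells, Cdkn1a at -1.74 (means of 216 and 723, but above 0, up to 2.30, with no filter on cells or fixed limits) and Cdkn1c at -1.82, and 2 of 4 in small cells, Cdkn1a at -2.61 (-0.42 without the spike-in-rich cell) and Cdkn2d at -1.48. Cdkn1b, which encodes p27, had means between 3.28 and 8.26.

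G2/M genes other than cyclins were read by gate. In 2i 9 of 15 were lower in small cells and 1 higher (Cenpe, at -1.15 without the spike-in-rich cell), with a median of -1.10 against -0.36 over all genes, among them Kif23 (-3.20, a cytokinesis kinesin) and Aurkb (-2.26, a kinase of the chromosomal passenger complex). In N2B27 2 of 15 were lower, Ttk (-2.04, a spindle checkpoint kinase) and Birc5 (-1.06), with a median of -0.52 against -0.11, so that the share lower was not above the 16.5% of all genes. Of 17 G1/S genes 5 were lower, Cdc6 (-1.56) and Rrm2 (-1.5) the lowest, and 2 higher (Gmnn and Tyms, 0 without the spike-in-rich cell) in 2i small cells. That share lower is close to the 27.7% of all genes, and the median was -0.48 against -0.36. In N2B27 small cells 0 G1/S genes were lower. Of 16 genes of cyclin degradation 7 were lower and 1 higher in 2i small cells (5 and 0 without the spike-in-rich cell), and 2 were lower and 1 higher (Cdc27 1.03) in N2B27, where Cdc27 was as low as -3.82 under other cell filters. Cdc20, an activator of the anaphase-promoting complex that destroys cyclin B, was lower in both (-2.19 and -2.10). By medium, 3 of 15 G2/M genes were lower and 6 higher in small cells (1 and 7 without the spike-in-rich cell) and 0 in either direction in ungated cells. The G1/S genes had 3 lower and 4 higher in small cells (0 and 4 without that cell) and 1 lower in ungated cells (Gins2 -1.15), and the degradation genes 2 lower and 1 higher (1 and 0 without that cell) and 1 lower (Cdc27 -1.07, up to 4.07 under other cell filters).

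The switch that restrains CDK1 by phosphorylation was read too. Of 7 genes of the CDK phosphorylation switch 4 were lower in 2i small cells (3 without the spike-in-rich cell), with Cdc25c at -2.79 and Plk1 at -2.44, and in N2B27 1 was lower (Plk1 -1.12) and 2 higher (Cdc25b 1.52 and Chek1 1.11, the latter as low as -5.94 under other cell filters). Of 8 pocket proteins and E2F factors tested in 2i 3 were lower (Rbl1 -1.43 and E2f1 -1.49 the lowest) and 1 higher in small cells (E2f8 1.45, and -3.32 without the spike-in-rich cell), and of 10 tested in N2B27 1 was lower and 4 higher. Of the 6 tested genes of B-MYB, FOXM1 and MuvB, 1 was lower in small cells of each medium, Mybl2, which encodes B-MYB, at -1.09 in 2i (-0.97 without the spike-in-rich cell) and -1.06 in N2B27, and 1 was higher in 2i (Lin52 1.25). Of the other cyclin-family genes tested, 2 of 10 were lower (Ccnl1 -1.23, Ccnc -1.10) and 2 higher in 2i small cells (Ccng1 1.32, Ccni 5.36, the latter 1.57 without the spike-in-rich cell), and 2 of 11 lower (Ccno -5.62, Ccnt1 -1.16) and 2 higher (Ccnc 1.5, Ccni 1.14) in N2B27 small cells. By medium, 5 of 7 switch genes were higher in small cells (4 without the spike-in-rich cell), and 1 was lower and 1 higher in ungated cells. Of pocket and E2F genes 6 of 11 were higher in small cells (7 without that cell) and 2 of 8 lower in ungated cells. Of B-MYB list genes 2 of 6 were lower in small cells and 1 of 7 higher in ungated cells. Of other cyclin-family genes 3 of 11 were lower (2 without that cell) and 1 higher in small cells, and 0 of 10 passed that size in the ungated. Over all genes 17.9% were lower and 23.8% higher in small cells, and 9.55% lower and 7.95% higher in ungated cells. By gate the shares were 27.7% and 16.4% in 2i, and 16.5% and 12.7% in N2B27.

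The cells were also called by phase with cyclone, from marker pairs that hold none of the 9 cyclin genes. G1, S and G2/M cells numbered 6, 5 and 1 in 2i small, 0, 8 and 14 in 2i ungated, 7, 10 and 3 in N2B27 small, and 2, 4 and 15 in N2B27 ungated cells. Over all 75 cells, Ccnd1 held at least 10 in 2 of 15 G1 cells, 13 of 27 S cells and 27 of 33 G2/M cells, and Ccnd3 in 12 of 15, 27 of 27 and 33 of 33. Ccna2 did so in 7 of 15, 24 of 27 and 33 of 33, Ccnb2 in 9, 21 and 33, and Ccnf in 7, 22 and 31. Ccne1 did so in 9, 25 and 30, with medians of 58.6, 604 and 635.

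The median of Ccnb1 was 156 in G1, 538 in S and 1532 in G2/M cells, and that of Ccnb2 98.6, 348 and 736. Of the 9 genes 8 had their highest median in cells called G2/M, Ccne1 and the D-type genes among them, though with phases from Seurat that of Ccne1 and Ccnd2 was in S. The medians of Ccnd2 were 0, 0.82 and 0.99 in G1, S and G2/M cells, far under 10. Those of Ccne1 in S and G2/M cells, 604 and 635, were close. Ccne2 had a median of 0 in all 3 phases of cyclone (1.57 in G1 by Seurat). Within N2B27 small cells, Ccnd1 reached 10 in 0 of 7 G1 cells, 1 of 10 S cells and 3 of 3 G2/M cells, while in N2B27 ungated cells called G2/M it did so in 10 of 15. A phase call is made from the same transcriptomes and shares their depth, and phase and gate go together in these cells.

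**Figure D5:**
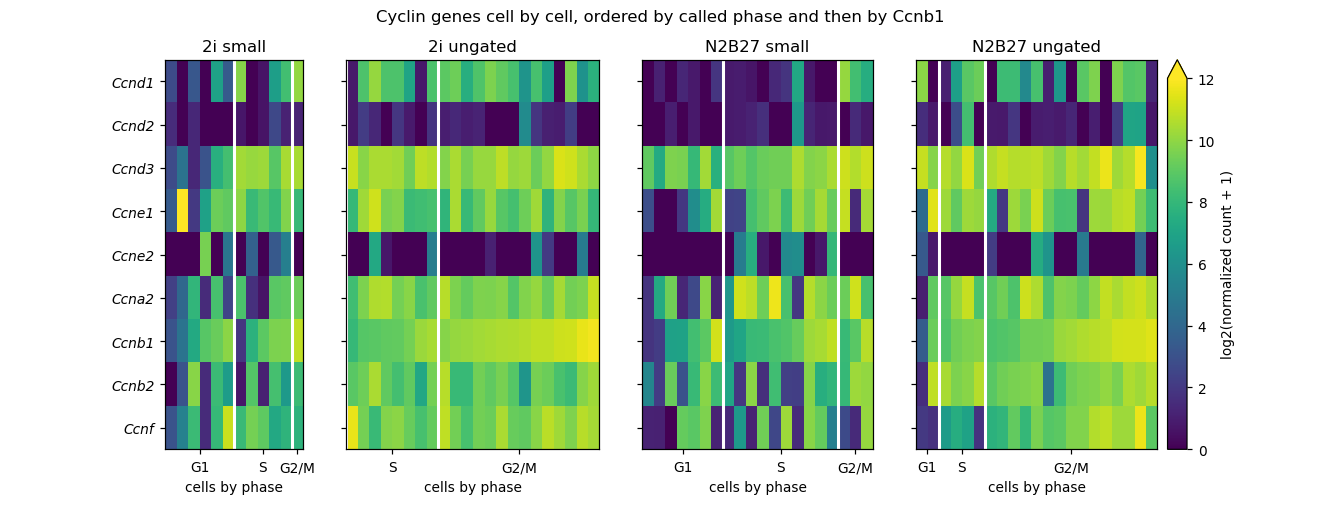
Columns are the 75 kept cells, split by group and by called phase (white lines) and ordered by Ccnb1 within a phase, rows are the 9 genes, and the colour is log2(normalized count + 1), topped at 12. Ccnd3 is bright in nearly every column and Ccnd2 and Ccne2 dark in most, and Ccnd1 is dark in 16 of 20 N2B27 small cells.

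Over cells, after centring log2 values on the group means, the closest pair of members was Ccnb1 and Ccnb2, with a correlation of 0.52 over 75 cells that share batches and depth. Ccna2 and Ccnb2 followed with 0.46, Ccnb1 and Ccnf with 0.42 and Ccne1 and Ccnb1 with 0.39. Ccnd1 correlated with Ccnd3 at 0.29 and with Ccnb1 at 0.07. Correlations of the members with the log2 spike-in share of a cell ran from -0.11 for Ccne2 to -0.51 for Ccnb1, while those with the log2 total count ran from -0.07 to 0.31.

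The genes most like each cyclin by the same measure, among 8756 compared (8757 for Ccnd2), are named by rank. For Ccnd2 the first was Zfp41 (0.49). For Ccna2 the first was Top2a (0.59), which encodes the topoisomerase of mitotic chromosomes, and for Ccnb2 it was Plk1 (0.56), a mitotic kinase. For Ccnd3 they were Gm2606 (0.74), Gm6430 (0.73) and Pou5f1 (0.72), for Ccnd1 Stmn2 (0.595), for Ccne1 Gm8355 (0.58), for Ccne2 Igfbp3 (0.63) and for Ccnf Ddx27 (0.65). For Ccnb1 the first 2 were its copies Ccnb1-ps and Gm12856, and Exosc8 (0.70) came next.

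Levels between genes are compared per kilobase of exon. Ccnd2 was the lowest of the 9 by mean in all 4 groups (0.107 to 3.12 normalized counts per kilobase), Ccne2 the next (3.84 to 19.8) and Ccnd1 the next (18.7 to 76.1). The highest was Ccnb2 in 3 groups (408, 244 and 598 in 2i ungated, N2B27 small and N2B27 ungated) and Ccne1 in 2i small cells (1768, from the spike-in-rich cell; by median 132). With the reads of its copies added, Ccnb1 came to 602, 284 and 536 in those 3 groups, above Ccnb2 in the first 2. The places of Ccnd3 and Ccnb2 depend on the length used. Over all exons (8.775 kilobases) Ccnd3 ranked 4 or 5. Over its principal transcript (2.113 kilobases) it was first in the same 3 groups, at 633, 430.0 and 773, and second in 2i small cells. Ccnb2 has 1.531 kilobases by either length. Over principal transcripts it ranked 3 in 2i ungated, 5 in N2B27 small and 2 in N2B27 ungated cells, so its lead holds over all exons only. In N2B27 ungated cells Ccne1, Ccnb1 and Ccna2, neighbours in the order at 347, 272 and 259, lay within the spread of their cells, whose coefficients of variation were 0.809, 0.690 and 0.639.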

How the data were processed

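Single ES cells were sequenced by Smart-seq2 with ERCC spike-ins, 24 cells for each of 4 groups of medium and gate. The deposited tables hold raw read counts per gene and cell. Per the submitters' processing notes and the methods, the authors trimmed reads with Trim Galore 0.4.4, aligned them to mm10 (GRCm38) with GSNAP 2015-09-29 and counted them with HTSeq against an Ensembl annotation. Reads in overlapping genes are set aside by such counting and strand is not kept. Of all counts, 72.4% lay on genes and 3.85% on spike-ins, and rows that name no gene were left out: 4.81% no feature, 6.77% ambiguous, 11.1% not aligned, 1.09% low quality and 0.0498% not unique.

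Limits on cells (scater 1.30.1), at 3 median absolute deviations, were set for each medium, and 75 of 96 cells passed. Total and genes detected had lower limits and mitochondrial share an upper limit. These were 307960 counts, 4435 genes and 5.16% in 2i, and 1250614, 5316 and 4.67% in N2B27. The spike-in-rich 2i small cell (4612 genes) would fail the N2B27 limit. An N2B27 small cell left out (1107513 counts, 5291 genes, 2.82%) would pass those of 2i. Comparisons by medium thus set unequally filtered cells side by side. The alternative of fixed limits (100000 counts, 4000 genes) was the same in both media. Cells were sorted one by one and no doublet caller was run. Counts were divided by size factors from DESeq2 1.42.0 (R 4.3.3), and group means were compared as log2 ratios with a pseudocount of 1. The background is every gene whose mean over both groups reached 20 normalized counts. Phases were called by cyclone in scran 1.30.0, and by Seurat 5.3.0 as an alternative. Python 3.11.15, numpy 2.4.6, scipy 1.17.1, pandas 2.3.3 and matplotlib 3.10.9 did the rest, and the scripts were tested on simulated data. Likeness is the Pearson correlation of log2 values over 75 cells, centred within groups. With 1 sample a group there was no test.

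The cyclin genes and the gene lists were chosen with earlier results of these data known. Named genes are all 9 cyclin genes; at most the 2 highest and 2 lowest ratios of each list and comparison; Cdk1, Cdk2, Cdk4, Cdk6, Cdkn1a and Cdkn1b; and the 3 genes most like each cyclin. A result of the G1/S list by gate in N2B27 is not reported here. Alternatives were other cell filters, CPM, scran, poscounts and spike-in scaling, pooled or thinned counts, means of log2 values, pseudocounts of 0.5 and 5, and leaving out cells. Leaving out both 2i small cells that stand apart, alone or with spike-in scaling, was chosen after seeing the data.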

Additional observations from a re-analysis of the deposited data

Results flagged for a closer look

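Ccne1 and Ccne2 had ratios of opposite sign in the 2 groups of a contrast. By gate, small against ungated, Ccne1 had a log2 ratio of 2.76 in 2i and -0.79 in N2B27. By medium, N2B27 against 2i, Ccne1 was at -3.14 in small cells and 0.42 in ungated cells. These differences were not tested, and without the 2i small cell of highest spike-in share the values in 2i and in small cells were -0.80 and 0.43, of the same sign as in the other group.

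Ccne2 by medium was at -1.24 in small cells and 0.079 in ungated cells. This difference was not tested either. Without the spike-in-rich cell the former was -1.36, and with the highest cell of each group left out it was 1.10.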

How the results depend on the processing

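No paired analysis was possible because each group is 1 sample. Counts of members past a log2 ratio of 1 are small, so 1 gene near the limit moves them, and the cause of a move was not tested unless a cell was left out. D-type genes by medium in small cells, 1 lower and 1 higher, became 0 lower with no cell filter, 2 lower and 0 higher with spike-in scaling, 0 lower with spike-in scaling without both cells apart, and 0 higher with the highest cells left out or a pseudocount of 5. In ungated cells, 0 and 1 became 1 and 0 with means of log2 values. D-type genes lower by gate in 2i, 2 of 3, became 1 with no cell filter, fixed limits, scran, a pseudocount of 5, or without the spike-in-rich cell or both cells apart, and 0 with CPM, poscounts, pooled or thinned counts or spike-in scaling, which gave 1 higher, and 3 with spike-in scaling without both cells. In N2B27 2 lower became 3 with spike-in scaling and 1 with no filter, fixed limits or means of log2 values, and the cell filters gave 1 higher. E, A, B and F genes by gate in 2i, 4 lower, became 1 with poscounts or spike-in scaling, 3 with pooled counts and 5 with spike-in scaling without both cells; 2 higher became 1 with CPM, spike-in scaling, pooled or thinned counts or without the spike-in-rich cell or both cells, and 0 with means of log2 values, the highest cells left out, or spike-in scaling without both cells. In N2B27 2 lower became 1 with CPM, scran, pooled or thinned counts, 0 with poscounts, and 5 with spike-in scaling or means of log2 values; 0 higher became 1 with no filter, scran, poscounts, pooled counts or the highest cells left out. By medium in small cells 2 lower became 3 with spike-in scaling (Ccna2, Ccnb1 and Ccnb2), 1 with no filter, CPM, thinned counts or without the spike-in-rich cell or both, and 0 with pooled counts, the highest cells left out or spike-in scaling without both; 1 higher became 2 with poscounts, means of log2 values or spike-in scaling without both, 3 with the highest cells left out and 0 with spike-in scaling. In ungated cells 0 lower became 1 with means of log2 values and 0 higher became 1 with poscounts.

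Of 576 log2 ratios of cyclin genes under alternatives 34 changed sign, 12 of them from a value under 1 in size. By medium in small cells, Ccnd3 went to -0.89, Ccnb1 to -2.13 and Ccnb2 to -1.49 with spike-in scaling. Ccnf went to 0.18 there with the highest cells left out and to 0.34 with spike-in scaling without both cells. By gate with poscounts, Ccnd1 in 2i went to 0.18 and Ccna2 in N2B27 to 0.28. By medium in ungated cells, Ccnd1 went to 0.10 and Ccnb1 to 0.22 with poscounts. Ccne1 went to -0.38 and Ccna2 to -0.25 there with means of log2 values, and Ccne2 to -0.073 with the highest cells left out. The other 22 are given below. Leaving out 2i small cells cannot change a ratio by gate in N2B27 or by medium in ungated cells. Those settings repeat the main or the spike-in value there, so fewer of the 576 were free to change. Of list genes past a log2 ratio of 1, 30 of 44 turned under at least 1 alternative by gate in 2i, 4 of 23 by gate in N2B27, 32 of 47 by medium in the small gate and 5 of 16 among ungated cells. With spike-in scaling Ccnd2 was at 1.12 by gate in 2i and -1.21 by medium in small cells, Ccna2 at 0.21 and -1.04, and Ccnb1 and Ccnb2 at 0.25 and 0.31 by gate in 2i. Ccnd2 by gate in N2B27 was at 2.09 with no filter and 2.41 with fixed limits, and by medium in small cells at -0.0042 with the highest cells left out. Ccne1 by gate in 2i was at -0.86 with means of log2 values, -0.64 with the highest cells left out, -0.80 without the spike-in-rich cell, -0.75 without both, and -1.58 with spike-in scaling too. Ccne1 by medium in small cells was at 0.21 with the highest cells left out, 0.43, 0.38 and 0.99 in the last 3 settings. Ccne2 was at -0.24 by gate in 2i with spike-in scaling without both cells, and by medium in small cells at 0.058 with pooled counts, 1.10 with the highest cells left out and 0.81 with spike-in scaling without both. With a minimum mean of 1, 19.4% of genes were lower and 14.3% higher in ungated N2B27 cells. Spearman correlation named 7 of the 27 genes most like a member again. Poscounts moved the medians of all genes in the order of comparisons to 0.27, 0.32, 0.30 and 0.41, spike-in scaling to 0.75, -0.81, -1.51 and 0.05, and means of log2 values to -1.41, -0.77, -0.13 and -0.63.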
